A study of Homo sapiens with 6 samples.

Results

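The RNA exosome, RNA polymerase I and the factors that assemble ribosomes were followed in MDA-MB-231 cells depleted of the histone demethylase LSD1. Members were all genes whose platform annotation symbol follows the EXOSC, NOP, NOL, UTP, RRP or POLR1 naming pattern and that have a probe set with exactly 1 symbol. These were 54 genes with 134 probe sets, of 19775 genes and 41091 probe sets with a single symbol. The family was chosen by its names and selected on signals of this same comparison, LSD1 siRNA against control siRNA, whose results were known when it was put forward, so the changes and counts below describe it and support nothing beyond the listed values.

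MDA-MB-231 is an established human breast cancer line of the ER-negative, mesenchymal type. Cells received an siRNA against LSD1 (3 arrays) or a control siRNA (3 arrays). The arrays of a group are biological replicates, harvested on day 6 after transfection in 2 rounds, and the design addresses how loss of LSD1 alters RNA levels. A signal is the array's brightness for a probe set, scaled by the submitters so that every array had a trimmed mean of 500.1. In bulk RNA, fewer cells of a type and less RNA per cell cannot be told apart.

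KDM1A, which encodes LSD1, had a signal of 2540, 2493 and 2295 on the control arrays and 290.5, 183.8 and 227.5 on the LSD1 siRNA arrays, a fall to 9.58% of control (exact two-sided permutation p = 0.1, the smallest that 3 against 3 arrays allow). Of 5 genes known to be expressed in this line, VIM, CD44 and CAV1 did not pass the test, MSN was higher (0.60) and EGFR lower (-0.25), and each had a signal of at least 3755 on every array. Of 5 genes known to be low or absent in it, none passed; ESR1, PGR and CDH1 read at most 95.2, 76.1 and 211.1, but FOXA1 read 199.5 to 248.6 and GATA3 456.0 to 565.4. None of 10 measured markers of leukocytes, endothelium and fibroblasts passed the test, with 4 of them below the filter. Their summed signal was 871.7 to 935.8 on the control arrays and 860.3 to 1011 on the LSD1 siRNA arrays. LUM, a fibroblast matrix gene among those below the filter, went from 4.60, 0.600 and 0.500 to 98.3, 86.3 and 101.0, and its part in the results was not tested. The ACTB 3′ to 5′ signal ratio, a sign of RNA quality, was 1.74 on control array 1 and 1.33 to 1.43 on the other arrays.

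Ribosomes begin in the nucleolus, where RNA polymerase I copies the ribosomal DNA into a long precursor RNA. The small subunit processome folds and cuts the part that becomes the small ribosomal subunit, while other factors shape the large subunit and snoRNA-guided and stand-alone enzymes modify nucleotides of the RNA, on the ribose or the base. The RNA exosome trims the ends of the precursors and destroys the spacers that are cut out, and it also degrades many other nuclear and cytoplasmic RNAs. Its core is a ring of EXOSC4 to EXOSC9 topped by a cap of EXOSC1, EXOSC2 and EXOSC3, with the nuclease EXOSC10 joining in the nucleus. The MYC protein, which with MAX binds the E-box CACGTG, is a known activator of ribosome assembly genes.

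The E-box was searched in the members' promoters as a feature that the choice of members did not use. RefSeq windows (GRCh38.p14) from 250 bases before to 50 bases after the start were matched for 45 of the 54 members. CACGTG, which reads the same on both strands, occurred in 14 of them (31.1%), against 1117 of 11167 windows of tested genes and 7.43% of all 27305 windows. It was found in 1 of 8 exosome windows (EXOSC5) and in 13 of the 37 windows of the other members. Among the other assembly factors outside the name pattern it was in 27 of 72 windows (37.5%). It was in 2 of 18 windows of exosome partners and RNA decay genes, and in 3 of 52 of ribosomal protein genes. The motif was present in 9 of 23 windows of members that fell and in 5 of 18 windows of members that did not pass, so it occurs on both sides. No test was run on these shares, and a match is a description of letters, not a measured binding site. Shown here are the 100 bases before the start, 5′ to 3′ on the gene's strand, of 5 members that fell and of NOP10, which did not pass, with the E-box in capitals.
UTP20 (chr12:101280005-101280104, plus strand): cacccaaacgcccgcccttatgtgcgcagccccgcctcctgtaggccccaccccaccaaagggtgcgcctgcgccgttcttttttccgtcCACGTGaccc
UTP4 (chr16:69132549-69132648, plus strand): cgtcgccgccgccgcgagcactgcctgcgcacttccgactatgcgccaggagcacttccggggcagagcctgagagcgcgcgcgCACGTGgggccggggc
UTP18 (chr17:51260446-51260545, plus strand): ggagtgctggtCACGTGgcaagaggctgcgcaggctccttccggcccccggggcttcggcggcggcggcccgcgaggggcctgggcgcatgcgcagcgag
EXOSC5 (chr19:41397360-41397459, minus strand): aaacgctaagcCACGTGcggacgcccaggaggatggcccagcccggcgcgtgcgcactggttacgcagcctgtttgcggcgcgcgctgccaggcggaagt
POLR1G (chr19:45406544-45406643, plus strand): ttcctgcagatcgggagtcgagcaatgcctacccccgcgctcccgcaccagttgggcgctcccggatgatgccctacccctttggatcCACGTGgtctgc
NOP10 (chr15:34343137-34343236, minus strand): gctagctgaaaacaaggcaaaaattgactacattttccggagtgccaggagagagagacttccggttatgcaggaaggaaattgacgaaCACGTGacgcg
In these windows the motif starts 10 to 16 bases before the start of UTP20, UTP4, POLR1G and NOP10 and 89 bases before that of UTP18 and EXOSC5. UTP18, EXOSC5 and NOP10 have a second copy outside the stretch shown. Another 5 motifs were searched on both strands. The ETS-type letters CCGGAAG were in 13 member windows (28.9%) and in 18.0% of windows of tested genes, and in none of the 8 exosome windows. The YY1 core AAGATGG was in 6 member windows (13.3%), 3 of them among the 8 exosome windows, and in 7.27% of windows of tested genes. TATAAA was in 3 member windows (6.67%) and in 6.40% of windows of tested genes. The NRF1 palindrome was in 2 member windows (4.44%, against 2.19%), none of them exosome, and the E2F-type TTCCCGC in 2 (4.44%, against 9.90%), 1 of them exosome. The median GC content was 62.3% for the members and 64.7% for tested genes. MYC itself had a signal of 6601, 7351 and 6745 on the control arrays and 6482, 7279 and 7604 on the LSD1 siRNA arrays, a log2 change of 0.04 ± 0.07 (SE) that did not pass. The MYC arrays of both groups overlap.

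Across the family, 27 genes fell and 2 rose with LSD1 siRNA, of 52 tested with limma at an adjusted p of 0.05, and 23 did not pass. Of all 13822 genes tested, 41.0% passed in either direction, 21.3% as lower and 19.8% as higher. The members' median log2 change was -0.28, with -0.02 over all genes tested. Control and LSD1 siRNA arrays were fully separated for 33 of the 52 members, where the share over all genes was 50.4%. Members' changes were of moderate size, from -0.89 for EXOSC10 to 0.75 for NOL4L, and 41 of the 52 lay below 0. NOP53 and NOL4 were below the filter on dim genes. NOL6 (adjusted p = 0.0358) lay just inside the threshold and UTP25 (adjusted p = 0.0549, limma) just outside it.

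**Figure D1:**
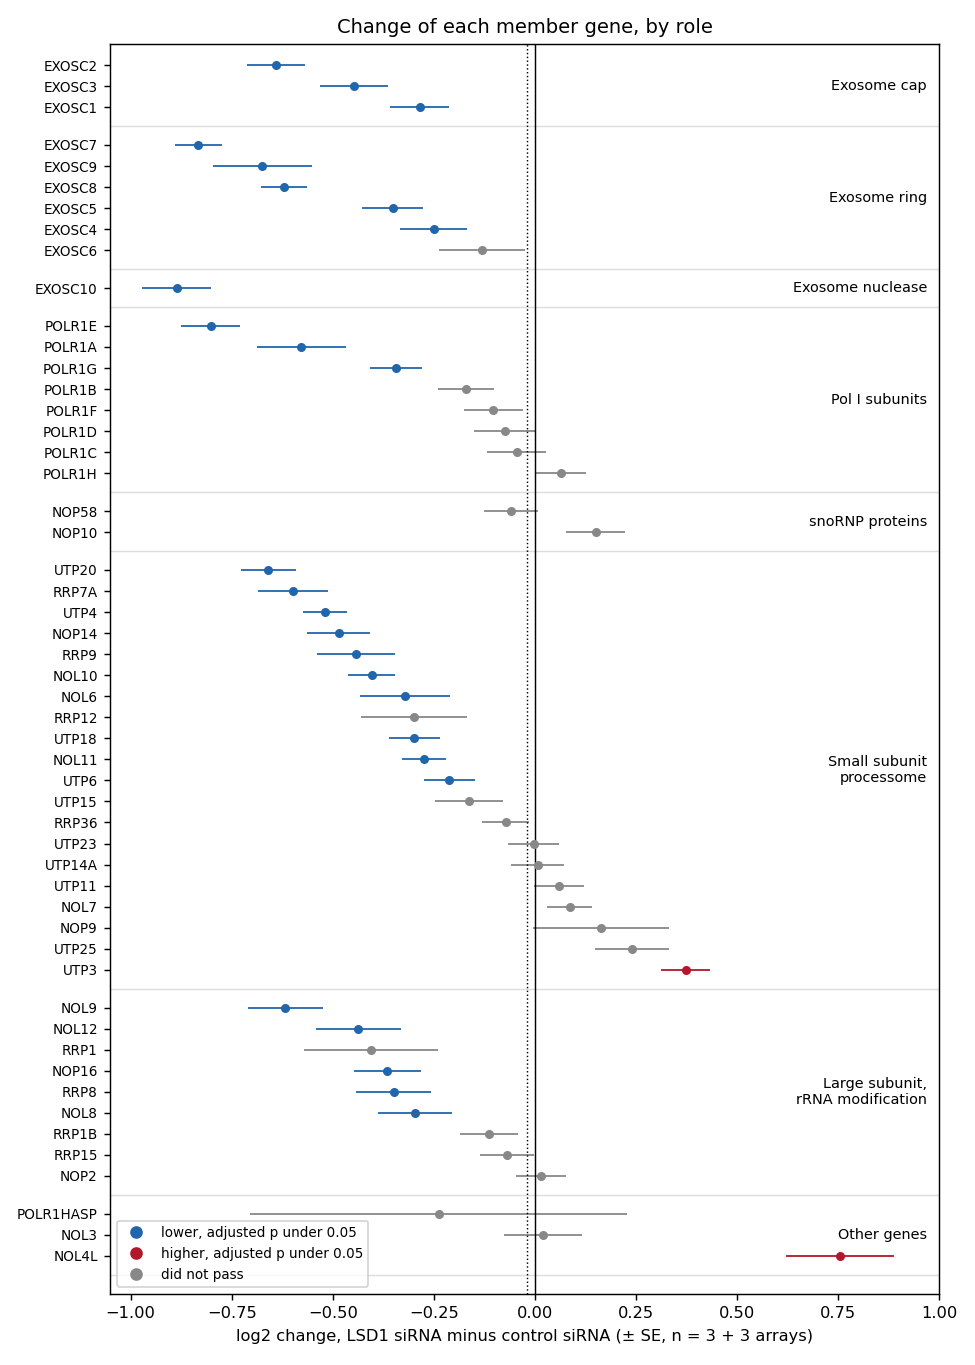
The log2 change of each of the 52 tested member genes (LSD1 siRNA minus control siRNA, points, with the standard error as bars, 3 arrays per group) is shown by role, with genes past the adjusted p of 0.05 in colour. The dotted line is the median of all genes at -0.02; the 10 exosome genes all lie to its left, while UTP3 and NOL4L are the 2 members past the threshold to its right.

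Among the EXOSC members, genes of the cap and the ring and the nuclease gene EXOSC10 fell. Of the exosome-type nuclease genes outside the name pattern, DIS3 rose (0.27), DIS3L fell (-0.79) and DIS3L2 did not pass. Of 10 EXOSC genes, 9 passed the test as lower and none as higher, with a median log2 change of -0.53, and the groups' arrays did not overlap for those 9. Over all genes tested, 21.3% were lower and the arrays of 50.4% did not overlap. EXOSC10, the nuclear nuclease related to yeast Rrp6, had a signal of 3448, 3135 and 3744 with control siRNA and 1963, 1947 and 1658 with LSD1 siRNA. Every LSD1 siRNA array lay below every control array, and the mean fell to 53.9% of control, a log2 change of -0.89 ± 0.08 (SE). The other EXOSC10 probe set was below the filter, with no array above a signal of 34.7, and averaging it in gave -0.45 (adjusted p = 0.107).

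Among the ring subunits the size of the change differed. EXOSC7 read 3516, 3766 and 3555 on the control arrays and 1997, 2046 and 2019.8 on the LSD1 siRNA arrays, with no overlap, at 55.9% of control and a log2 change of -0.83 ± 0.06 (SE). A dimmer EXOSC7 probe set gave 917.2, 794.4 and 755.6 against 855.8, 862.4 and 781.2, a log2 difference of 0.02 ± 0.09 (SE), so the sets of this gene disagree and those arrays overlap. EXOSC8 read 7439, 7557 and 7186 with control siRNA and 5010.1, 4663 and 4739 with LSD1 siRNA, a fall of 0.62 on the log2 scale with no overlap. EXOSC9 read 2108, 2314 and 2356 against 1109, 1519 and 1657, a log2 change of -0.67 ± 0.12 (SE); its LSD1 siRNA array 1 was the lowest of the group. EXOSC5 fell by 0.35 and EXOSC4 by 0.25. The EXOSC4 change did not pass without control replicate 1 (adjusted p = 0.120), control replicate 2 (0.109), LSD1 siRNA replicate 2 (0.0779) or LSD1 siRNA replicate 3 (0.107) in limma. A second EXOSC4 set passed as lower at -0.42, and a dimmer set, at -0.26, did not pass. EXOSC6 did not pass on its brightest probe set, at 1132, 1047 and 1333 against 1128, 1148 and 924.0, where the groups overlap. A dimmer EXOSC6 set did pass as lower, at 565.1, 542.0 and 379.7 against 214.4, 324.4 and 268.5.

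The cap genes, whose proteins hold the RNA-binding surface at the ring's entrance, all passed as lower. EXOSC2 read 1716, 1557 and 1674 with control siRNA and 1121, 1010.1 and 1027 with LSD1 siRNA, a fall to 63.8% of control. A second EXOSC2 set also fell, with a log2 change of -0.51 ± 0.08 (SE). EXOSC3 fell by 0.45 on the log2 scale, and of its 6 sets 2 passed as lower, with all 6 changes between -0.46 and -0.17. EXOSC1 read 3657, 3492 and 3276 against 3128, 2764 and 2668, a log2 change of -0.28 ± 0.07 (SE). The arrays of EXOSC1 did not overlap, but averaging in its 2 sets below the filter turned the value to 0.22 (adjusted p = 0.291).

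**Figure D2:**
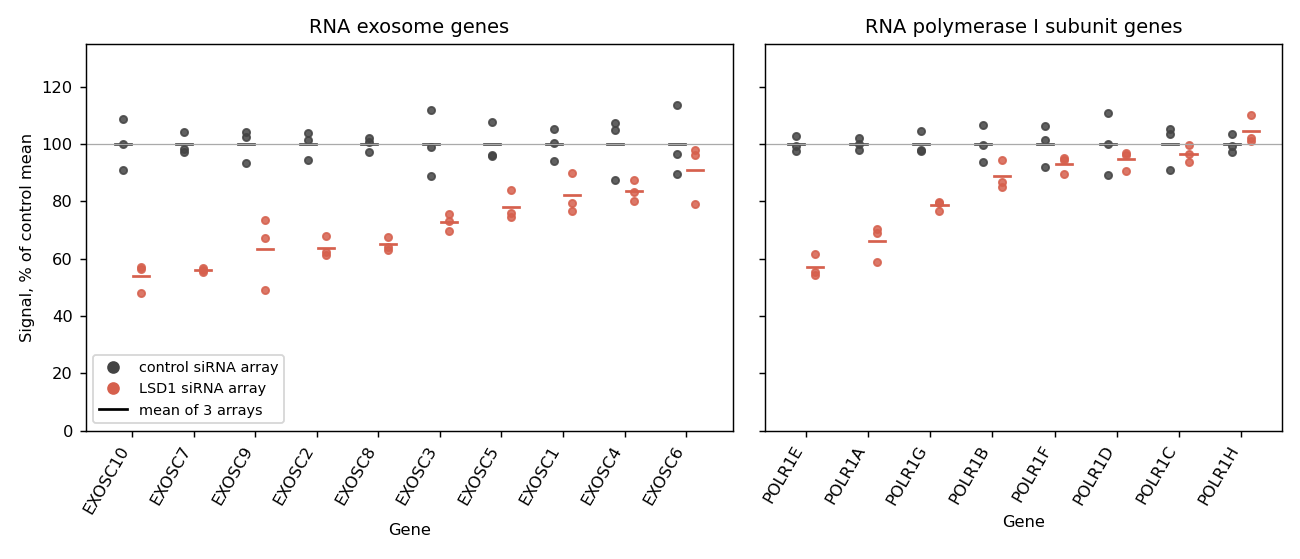
Signal of each array as a percent of the gene's control mean for the 10 exosome genes (left) and the 8 RNA polymerase I subunit genes (right), with points for arrays and short lines for the mean of 3. EXOSC10 sits at 53.9% and EXOSC7 at 55.9% of control, while 5 of the 8 polymerase subunit genes lie between 88.8% and 105% with groups that overlap.

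RNA polymerase I subunits split into 3 genes that fell and 5 that did not pass, where 21.3% of all genes tested fell. POLR1E, which pairs with POLR1G on the enzyme, read 1544, 1627 and 1568 on the control arrays and 872.3, 857.5 and 970.9 on the LSD1 siRNA arrays. This is a fall to 57.0% of control, a log2 change of -0.80 ± 0.07 (SE). Another POLR1E set also fell, at -0.77, and the dimmest, at -0.52, did not pass. POLR1A, the largest catalytic subunit, read 457.9, 440.1 and 448.7 against 263.7, 316.3 and 310.1, with a log2 change of -0.58 ± 0.11 (SE). Of its 3 sets only this one passed, and the others were at -0.59 and -0.35. POLR1G, the partner of POLR1E, read 1871, 1861 and 1997 against 1521, 1467 and 1517, a fall of 0.34. For these 3 genes every LSD1 siRNA array lay below every control array.

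The remaining polymerase subunits had values near control. POLR1B, the second catalytic subunit, was at -0.17 (adjusted p = 0.0716, limma); it passed at -0.21 without control replicate 2 (adjusted p = 0.0474) and without LSD1 siRNA replicate 1 (0.0480), and 1 of its 4 sets passed as lower at -0.35. POLR1F was at -0.10, POLR1C, which RNA polymerase III shares, at -0.05, and POLR1H at 0.06. POLR1D, also shared with RNA polymerase III, was at -0.07 on its brightest set, with arrays at 5678, 6279 and 5054 against 5466, 5149 and 5492. A dimmer POLR1D set read 862.6, 816.1 and 1020.4 against 1246, 1258 and 1240.0 and passed as higher at 0.47, and the mean of the gene's sets was 0.21 (adjusted p = 0.0156). Which transcripts these sets detect is not given here. POLR1HASP, the antisense RNA of POLR1H, had signals of at most 67.8 and did not pass.

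In the small subunit processome, 10 of 20 genes fell, 1 rose and 9 did not pass, with a median log2 change of -0.24, where 21.3% of all genes tested fell and 19.8% rose. UTP20, a large repeat protein of the complex, read 1632, 1560 and 1578 with control siRNA and 1035, 953.0 and 1017 with LSD1 siRNA, a fall to 63.0% of control and a log2 change of -0.66 ± 0.07 (SE). RRP7A read 1165, 1143 and 1006 against 777.0, 720.9 and 674.7, at -0.60. UTP4, which also supports transcription of ribosomal DNA, was steady within groups, at 7218, 7182 and 7218 against 5198, 4941 and 4936, and fell by 0.52. NOP14 read 2161, 2519 and 2102 against 1659, 1537 and 1623, at -0.49. No array of these 4 genes crossed between groups. Of the 9 genes that did not pass, UTP15 and RRP36 each had a dimmer set that passed as lower, at -0.66 and -0.43.

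UTP3 moved the other way. Its signal was 1781, 1765 and 1806 on the control arrays and 2210.2, 2380.4 and 2356 on the LSD1 siRNA arrays, a rise to 130% of control and a log2 change of 0.37 ± 0.06 (SE) with no overlap. UTP25 was at 0.24 on the set used for the gene, a brighter x suffix set was at 0.12, and all 4 of its sets were above 0, 1 of them past the threshold at 0.43. The other genes that fell in the processome were NOL6, NOL10, NOL11, RRP9, UTP6 and UTP18, at -0.44 to -0.21; they are named to complete the count. NOL6 did not pass without control replicate 2 (adjusted p = 0.09995), control replicate 3 (0.0925), LSD1 siRNA replicate 1 (0.121) or LSD1 siRNA replicate 2 (0.101). UTP6 did not pass without control replicate 2 (0.0592) or LSD1 siRNA replicate 1 (0.0742), all in limma. With the mean of their sets, NOL10 was at -0.33 (adjusted p = 0.0663), NOL6 at -0.08 (0.587) and UTP6 at -0.12 (0.670), so these did not pass either.

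Of 9 tested genes of the large subunit and of ribosomal RNA modification, 5 fell and none rose, with a median log2 change of -0.35, against the same 21.3% and 19.8% of all genes. NOL9, a polynucleotide kinase that acts on the spacer between the large subunit RNAs, read 1502, 1428 and 1354 against 1057, 901.1 and 830.7, at -0.62 ± 0.09 (SE), and all 3 of its sets passed as lower. NOL12 read 462.2, 554.3 and 507.1 against 394.0, 364.0 and 353.6, at -0.44. NOP16 was at -0.37 and the methyltransferase gene RRP8 at -0.35. With the mean of their sets, NOP16 was at -0.07 (adjusted p = 0.789) and RRP8 at 0.12 (adjusted p = 0.643). These means take in dim sets, with no array above 59.6 for NOP16 and 41.5 for RRP8. Only the brightest set of each gene passed, and a second bright NOP16 set, at -0.18, did not. NOL8, the last of the 5, was at -0.30 and did not pass without control replicate 3 (adjusted p = 0.0700), LSD1 siRNA replicate 1 (0.0925) or LSD1 siRNA replicate 2 (0.0685) in limma. NOP2, which methylates a cytosine of the large subunit RNA, read 2271, 2192 and 2124 against 2294, 2161 and 2202, a log2 difference of 0.02 ± 0.06 (SE), and its arrays overlap.

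Neither of the 2 snoRNP protein genes under the name pattern passed. Among the other ribosome assembly factors counted below, the snoRNP protein genes FBL and NHP2 fell, at -0.74 and -0.51. GAR1, at -0.08, did not pass. These 3 are named to complete the class. NOP58, of the box C/D particles that guide methylation, was at -0.06, with arrays at 5380.3, 5303 and 5099.7 against 4652, 5124 and 5399. NOP10, of the H/ACA particles that guide pseudouridylation, was at 0.15. NOP56, RRP7BP and UTP14C have only probe sets that carry several symbols, so they are not members and have no value here.

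The name pattern also took in NOL3, NOL4 and NOL4L, which are not known as ribosome assembly factors. NOL4L read 233.1, 240.8 and 211.4 with control siRNA and 426.0, 329.6 and 438.7 with LSD1 siRNA, the largest rise of the family at 0.75 ± 0.13 (SE). Of its 4 sets above the filter, 2 passed as higher. NOL3, an inhibitor of apoptosis, was at 0.02 on its brightest set, and 1 dim set with control signals of at most 37.7 passed as higher. Leaving these 3 genes and POLR1HASP out gave 27 lower and 1 higher of 49.

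Many members are measured by several probe sets. Of the 115 member probe sets above the filter, 40 passed as lower and 6 as higher in a fit of every probe set, in which 17.4% of 27079 sets passed as lower and 17.0% as higher. Of 34 genes with at least 2 such sets, 4 had all sets lower (EXOSC2, NOL9, UTP4 and UTP18), 11 had no set past the threshold, and 0 had sets past it in opposite directions.

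**Figure D3:**
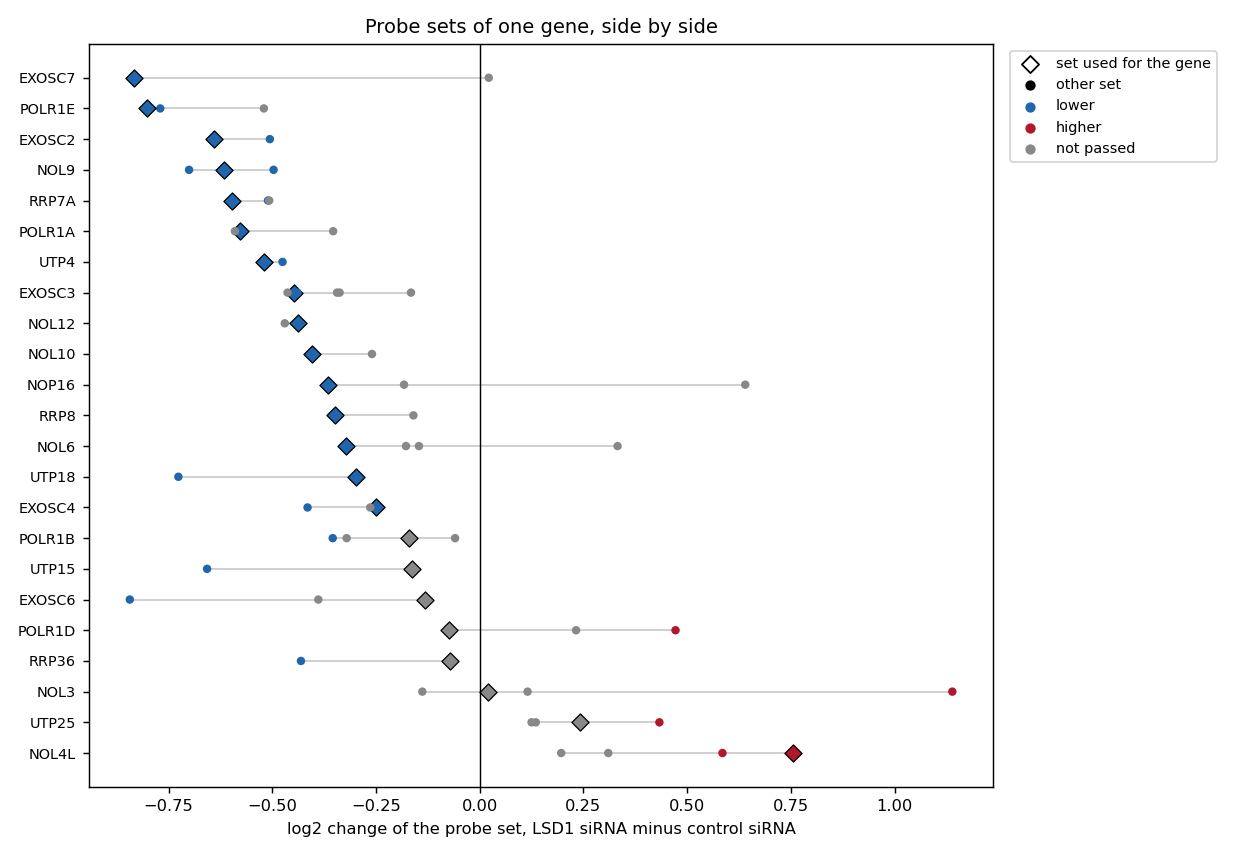
Each row is a member gene with at least 2 probe sets above the filter and at least 1 past the threshold; points are log2 changes of probe sets (LSD1 siRNA minus control siRNA), diamonds mark the set used for the gene, which is the brightest apart from x suffix sets (brighter for EXOSC3, RRP7A and UTP25), and colours give the call. EXOSC7 spans -0.83 to 0.02 and POLR1D spans -0.07 to 0.47, while the sets of NOL9 and EXOSC2 stay on the lower side.

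Genes that work with these factors were counted from lists of known pathway genes. Of 20 exosome partners and RNA decay genes, 3 fell and 5 rose, with a median of 0.08; as shares of the list both counts are near the 21.3% and 19.8% of all genes tested. TENT4A, a poly(A) polymerase gene, changed by -1.17, and DIS3L, a cytoplasmic exosome nuclease, by -0.79, while DCP2, the decapping enzyme, rose by 0.47. The other 4 that rose, chosen for naming after their values were seen, were the exosome nuclease DIS3 (0.27), the EXOSC10 partner C1D (0.31), SKIC3 (0.26) and LSM1 (0.30). ZCCHC8, at -0.25, completes those that fell. Each gene of the lists stands for 1 probe set, and other sets of these genes are not compared here.

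Of 18 RNA polymerase I factors and shared subunits, 8 fell (44.4%) and 1 rose (5.56%), with a median of -0.20. TCOF1, the treacle protein gene needed for ribosomal DNA transcription, changed by -0.95, the shared subunit gene POLR2H by -0.50 and NOLC1 by -0.50. RRN3, the initiation factor that recruits the polymerase, was the 1 that rose, at 0.44. Of 80 other ribosome assembly factors, 38 fell (47.5%) and 5 rose (6.25%), with a median of -0.20; those 5 were DDX10, EFL1, DCAF13, RIOK2 and PWP1. RRS1, which brings a ribonucleoprotein of the large subunit into place, changed by -1.32, IMP4, a processome protein that binds the U3 snoRNA, by -0.91, and MDN1, the ATPase that strips factors from the large subunit, by -0.91.

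The other polymerases and the ribosomal proteins were counted in the same way, against 21.3% lower and 19.8% higher over all genes tested. Of 7 RNA polymerase II subunit genes, 4 fell and none rose, with POLR2D at -0.47, POLR2J at -0.32 and POLR2I at -0.27. Of 10 RNA polymerase III subunit genes, 1 fell, POLR3K at -0.70, and 2 rose, POLR3GL at 0.61 and POLR3A at 0.27, so the share that rose is near that of all genes. Of 58 cytosolic ribosomal protein genes, 14 fell (24.1%, near the share of all genes) and 2 rose, with a median of -0.20. The change lay below 0 for 54 of the 58, and for 7171 of all 13822 genes tested. RPL26L1 changed by -0.85, RPL39L by -0.58 and RPL22L1 by 0.40; RPS27L, at 0.28, was the other that rose. All 4 are paralogues of standard ribosomal proteins, and near-identical copies can share signal between probe sets. The proliferation marker MKI67 fell to 52.3% of control in the same arrays, and its part in the members' changes was not tested.

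**Figure D4:**
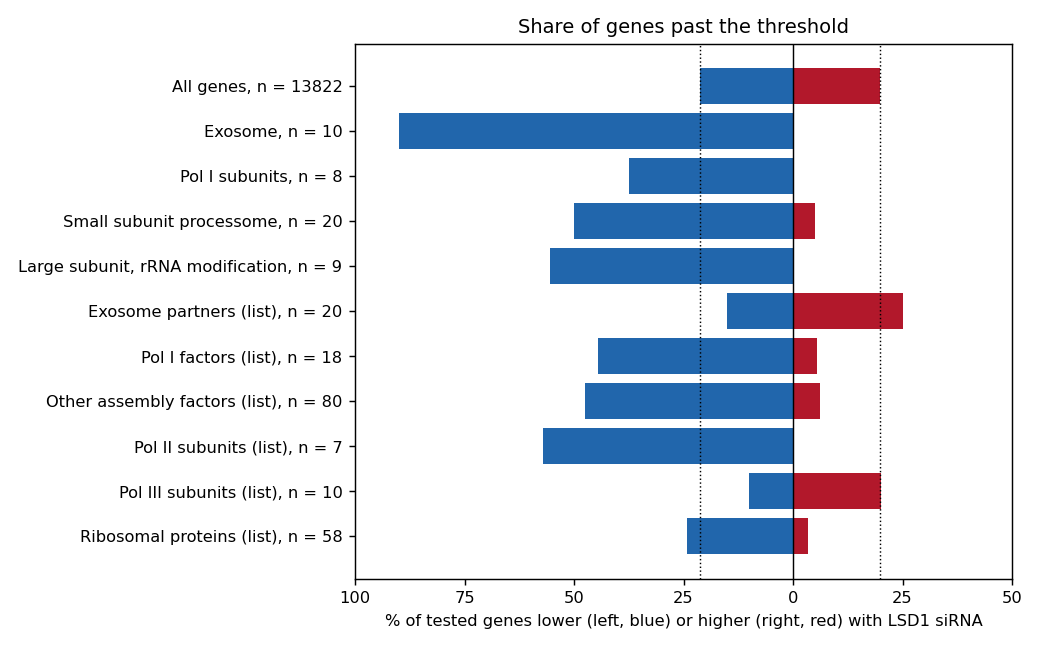
Bars give the percent of tested genes lower (left, blue) or higher (right, red) with LSD1 siRNA at an adjusted p of 0.05, for all 13822 genes, for 4 groups of members and for the lists of pathway genes; dotted lines mark the shares of all genes, 21.3% and 19.8%. The exosome bar stands for 9 of 10 genes on the lower side. The bar labelled exosome partners also holds RNA decay genes and stands for 5 of 20 higher and 3 lower.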

How the data were processed

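MAS5, GCOS and Affymetrix Expression Console 1.1 are named in the submitters' processing notes. The deposited values are intensity on a linear scale, 1 per probe set, from 6 arrays hybridised from 2.5 ug of total RNA. Scaling to a common mean hides any change in total RNA per cell, and no detection calls were used. Gene symbols came from the platform annotation; all 54 member identifiers matched RefSeq. Each gene was represented by its brightest probe set (x suffix sets only where no other existed). Values were log2(intensity + 15), which understates changes of dim genes. Genes above the 40th percentile of all sets were kept, a signal of 28.0. LSD1 siRNA was set against control siRNA by limma 3.58.1, run in R 4.3.3 (lmFit, eBayes with trend, two-sided, Benjamini-Hochberg over 13822 genes). Arrays have no read depth, so their number limits precision. The median SE of a log2 change was 0.11, and 0.07 for members. Smaller changes can therefore pass in members, and their shares are set beside those of all genes at unequal precision. In data simulated for this comparison over 13822 genes, 22% of 1.25-fold, 42% of 1.5-fold, 70% of 2-fold and 86% of 3-fold changes were recovered. That simulation changed 50 genes at each fold, a far smaller share than passed in the data.

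Members and lists were chosen with earlier results of these data known. Named genes are all EXOSC and POLR1 members, in other roles the 4 largest changes past the threshold and any against its role, MYC, MKI67, KDM1A and the 3 largest of each list past the threshold; other names complete a count or a probe set comparison and were added with values known. Alternatives changed the constant, filter, normalization, variance model, probe set rule, replicate block and arrays used. Figures used matplotlib 3.10.9.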

Additional observations from a re-analysis of the deposited data

How the results depend on the processing

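Of the 29 members past the threshold, 20 kept direction and call under all 15 gene-level alternatives. With the mean of all probe sets, EXOSC1 reversed to 0.22, POLR1D to 0.21 and RRP8 to 0.12, 5 members in place of 2 passed as higher, and the members' median was -0.25. That median was -0.29 with no filter and -0.27 after median centring, and -0.28 to -0.23 with 1 array left out (-0.25 without control replicate 1, whose ACTB ratio was 1.74). Testing every probe set gave 9310 calls, 4607 higher and 4703 lower, with 46 member sets, 40 lower and 6 higher; the number of features tested rose with it. Leaving out 1 array gave 27 to 29 member calls, and 8 to 9 EXOSC genes lower. With no intensity trend, 24 members passed, 7 of them EXOSC genes; EXOSC1 (adjusted p = 0.0526) and EXOSC4 (0.103) were lost.

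Replicate numbers recur in both groups, but correlations of deviations of same-numbered arrays were 0.01, -0.01 and 0.02 over 13822 genes. No shared replicate effect was seen, and the main fit did not pair the arrays. The labels do not say whether same-numbered arrays were run together. With a replicate block 31 members passed, 28 lower and 3 higher, and the number of genes passing the test was 5679. The simulation changed 50 genes at each fold, whereas 41.0% of genes passed in the data, and it drew on the spread of all genes. Its adjustment was therefore stricter, and its recovery shares set no bound on this comparison. Members that did not pass are still not shown to be unchanged.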
